A study of Mus musculus with 56 samples.

Results

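The comparison described here sets hearts of mice under daytime-restricted feeding (DRF) collected at zeitgeber time 4 (ZT4) against hearts under nighttime-restricted feeding (NRF) collected at ZT16. The libraries are defined by regimen and collection time, and make up 8 of the 56 libraries of the series, 4 of each group. All were whole hearts of female C57BL/6J mice aged 9 weeks, kept under a 12 h light and 12 h dark cycle on their regimen for 7 days. ZT counts hours from lights on. DRF mice could eat only in the light phase and NRF mice only in the dark phase, so both groups had been in their feeding window for 4 h. They differed in the light phase and in which phase had been the meal phase for the preceding week. Where a result needed it, hearts 4 h into fasting were used as the counterpart, namely NRF ZT4 and DRF ZT16, also 4 libraries each. The labels do not say that the replicates of a group came from separate animals, so the p-values measure the spread between these samples, which may be technical. The regimen was set for whole animals, and bulk RNA of a whole heart pools every cell type in it. Fewer cells of a type and less RNA per cell therefore cannot be told apart in any value given here.

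In the mammalian clock, the activators BMAL1 (Arntl), CLOCK and NPAS2 switch on their own repressors, the PER and CRY proteins, through E-box sequences, and the REV-ERB proteins (Nr1d1, Nr1d2) and ROR proteins act in opposite ways on Arntl through ROR elements. The PAR bZIP factors DBP, TEF and HLF carry the rhythm to output genes through D-boxes. In peripheral organs this clock takes timing cues from both light-driven signals (glucocorticoids, body temperature, nerves) and meals, and the heart also changes its choice of fuel between fatty acids, ketone bodies and glucose as meals come and go.

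Values are TPM (reads per gene length, brought to 1 common total) recomputed from reads that were recovered from the deposited numbers. Differences are DRF ZT4 minus NRF ZT16 on the log2(TPM + 1) scale, with the standard error (SE), from a limma fit of 14 group means over all 56 libraries. A gene was called at a Benjamini-Hochberg adjusted p under 0.05 over 13878 tested genes. Recovered totals were 31.8 to 39.0 M reads in DRF ZT4 and 37.4 to 48.3 M in NRF ZT16 (exact permutation test, two-sided p = 0.0857, where 4 against 4 cannot go below 0.029). The mitochondrial share of recovered reads was 20.98% ± 2.18 against 20.8% ± 0.881 (SD, n = 4 each). Summed levels of the 5 cardiomyocyte markers, Myh6, Tnnt2, Actc1, Tnni3 and Ryr2, were 18770 to 23500 TPM in DRF ZT4 and 21620 to 23970 TPM in NRF ZT16. None of the 15 summed marker lists separated the groups by an exact permutation test (lowest p = 0.0857, liver cell markers). Single libraries nevertheless stood far apart in them. DRF ZT4 replicate 2 held 66920 TPM of erythroid markers, against 1896 to 5297 TPM in the rest of its group, and 5133 TPM of atrial, 220.3 TPM of epicardial and 68.9 TPM of liver cell markers. NRF ZT16 replicate 2 held 4468 TPM of atrial markers and NRF ZT16 replicate 1 held 32300 TPM of erythroid markers. The part of these markers in the results was not tested.

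Several DRF ZT4 libraries did not sit closest to their own group. Over the 19 clock genes, centred on the mean of the group means, the library labelled DRF ZT4 replicate 1 correlated with the mean of the other DRF ZT4 libraries at r = 0.312 and with the NRF ZT8 mean at r = 0.986. The other DRF ZT4 libraries correlated with their own group at 0.905, 0.778 and 0.458, and replicate 4 was nearer to NRF ZT4 (r = 0.876). Over all tested genes none of the 4 DRF ZT4 libraries was nearest to its own group, with r of -0.155, -0.204, 0.236 and 0.117 for replicates 1 to 4. Each NRF ZT16 library was nearest to its own group over the clock genes, at 0.869 to 0.979. Over all tested genes 3 of the 4 were, and NRF ZT16 replicate 2 was nearer to DRF ZT12 (r = 0.389) than to its own group (r = 0.374). These correlations are descriptions across genes of shared function, which are not independent replicates. Labels were kept as given, and results are reported with and without the library labelled DRF ZT4 replicate 1. Among the counterpart libraries, DRF ZT16 replicate 1 also stood apart in some clock genes.

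**Figure D1:**
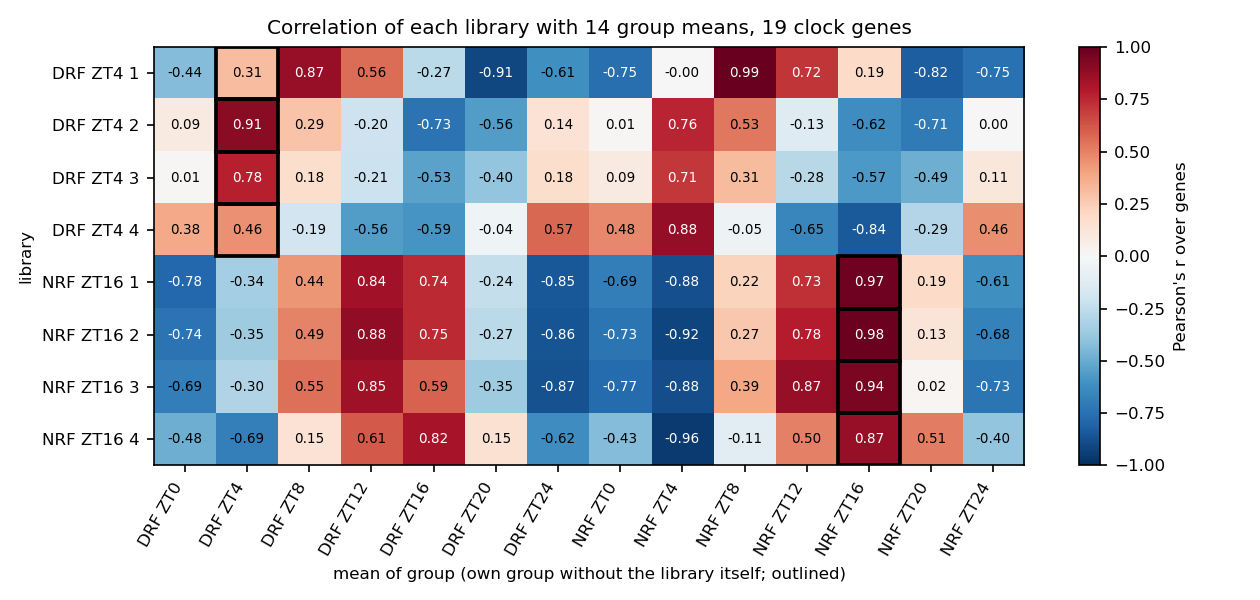
Pearson r over 19 clock genes between each of the 8 hearts (rows) and the mean of each of 14 groups (columns), its own group taken without it. The library labelled DRF ZT4 replicate 1 reaches 0.986 with NRF ZT8 and 0.312 with its own group, while the NRF ZT16 libraries reach 0.869 to 0.979 with theirs.

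Core clock genes were set far apart in the food-matched hearts. Of 19 clock genes, 11 were called, 4 higher and 7 lower in DRF ZT4, where 6.44% of all tested genes were called. Without the library labelled DRF ZT4 replicate 1, 14 were called, 4 higher and 10 lower, against 6.06% of all genes. Short stretches of promoter are shown first, because the clock factors act on genes through these letters and the members below are read as activators, repressors and outputs. The motifs searched were the E-box CACGTG, the D-box TTANGTAA and the ROR element TAGGTCA, on both strands, in RefSeq windows from 250 bases before to 50 bases after each gene start (build GRCm38.p6). Each stretch below is written 5′ to 3′ on the gene's strand with the motif in capitals and 10 bases on each side.
Cry1 E-box, chr10:85185099-85185124, minus strand: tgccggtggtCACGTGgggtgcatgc
Per1 E-box, chr11:69098773-69098798, plus strand: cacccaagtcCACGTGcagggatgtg
Tef E-box, chr15:81802536-81802561, plus strand: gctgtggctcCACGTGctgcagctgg
Ciart E-box, chr3:95882329-95882354, minus strand: catctagagtCACGTGttgccggtaa
Per3 D-box, chr4:151044853-151044880, minus strand: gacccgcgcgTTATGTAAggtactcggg
Arntl ROR element, chr7:113207531-113207557, plus strand: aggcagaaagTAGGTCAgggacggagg
Slc41a3 E-box, chr6:90619023-90619048, plus strand: cagcccatggCACGTGtgcagaggac
Fkbp5 E-box, chr17:28486303-28486328, minus strand: aagggccagaCACGTGggcagcggtg
Windows were matched for 16 of the 19 clock genes. An E-box was present in 5 of the 16 (31.2%: Per1, Cry1, Ciart, Bhlhe41 and Tef). It was present in 8.09% of all 27025 genes with a window, or 11.6% of the 9911 tested genes with a window. A D-box was present in 1 of 16 (6.25%, Per3) and in 2.72% of all genes with a window. A ROR element was present in 2 of 16 (12.5%, Arntl and Nfil3) and in 2.97% of all genes with a window. Among the genes with the largest changes described further on, 18 had a window and 2 of them held an E-box (11.1%, Slc41a3 and Fkbp5). A match is a description of letters, not a binding site.

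Of 5 clock activators, 3 were higher and 1 lower in DRF ZT4. Arntl (chr7:113207465-113314126, plus strand) was at 1.95, 6.15, 5.77 and 7.17 TPM in DRF ZT4 replicates 1 to 4 and at 0.905, 1.05, 0.743 and 1.67 TPM in NRF ZT16. The groups did not overlap, although the library labelled DRF ZT4 replicate 1 was close to the highest NRF ZT16 value. The log2 difference was 1.5 ± 0.23 (SE), adjusted p = 1.13e-05, and 1.83 ± 0.22 without that library. Npas2, a partner of BMAL1 that is close to CLOCK, was at 1.35, 3.40, 3.12 and 3.46 TPM against 0.327 to 0.603 TPM, a difference of 1.34 ± 0.18 (adjusted p = 5.34e-07). Clock itself differed little, at 9.26 ± 0.720 against 7.17 ± 0.180 TPM (SD, n = 4), but was called (log2 difference 0.33 ± 0.09, adjusted p = 0.0215). Rora was lower in DRF ZT4 at 4.504 ± 0.963 against 6.54 ± 0.549 TPM (adjusted p = 0.00197).

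Most PER and CRY repressors were lower in DRF ZT4. Per2 (chr1:91415982-91459324, minus strand) was at 5.93, 2.54, 3.81 and 2.96 TPM in DRF ZT4 and at 22.5, 31.3, 18.04 and 15.8 TPM in NRF ZT16. All 4 DRF ZT4 hearts were below all 4 NRF ZT16 hearts, and the difference was the widest among clock genes (-2.25 ± 0.24, adjusted p = 3.10e-09). Cry1 was at 5.16, 8.65, 9.77 and 9.79 TPM against 19.9 to 21.5 TPM (-1.25 ± 0.16, adjusted p = 2.45e-07). Per3 (-1.15 ± 0.18) and Cry2 (-0.49 ± 0.11) were also lower and did not overlap. Per1 was at 13.4, 7.47, 6.21 and 7.38 TPM against 12.8, 20.3, 23.9 and 21.9 TPM, with a single DRF ZT4 value inside the NRF ZT16 range. That value was from the library labelled DRF ZT4 replicate 1, and the adjusted p of Per1 was 0.0508 with it and 0.0276 without it. Per1 was also called with all 8 libraries after rescaling by the median of ratios (adjusted p = 0.0272) and with a replicate block (adjusted p = 0.0409).

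Nr1d1, which encodes REV-ERB alpha, was the exception among repressors. It was at 139.6, 82.5, 59.0 and 55.4 TPM in DRF ZT4 against 18.03, 23.1, 21.4 and 10.4 TPM in NRF ZT16 (2.10 ± 0.27, adjusted p = 5.34e-07). Exons of Nr1d1 share 263 bases (8.55% of its exon length) with Thra on the other strand, and whether counting used strand is not stated, so its level is uncertain to that extent. Its paralog Nr1d2 was not called with all libraries (40.8 ± 15.96 against 52.1 ± 8.57 TPM, adjusted p = 0.229) and was lower without the library labelled DRF ZT4 replicate 1 (-0.64 ± 0.18, adjusted p = 0.0257). Ciart, a repressor of CLOCK and BMAL1, was at 7.57, 2.07, 1.73 and 0.972 TPM against 3.996 to 8.82 TPM, with an adjusted p of 0.0753 with that library, 0.00571 without it and 0.043 with all 8 libraries after rescaling by the median of ratios. Bhlhe40, Bhlhe41 and Nfil3 were called in neither set.

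Of the PAR bZIP factors, Tef and Hlf were lower in DRF ZT4. Tef was at 54.1, 33.7, 40.5 and 30.8 TPM against 78.1, 89.0, 81.8 and 66.3 TPM (-0.99 ± 0.16, adjusted p = 2.32e-05), and Hlf differed by -0.77 ± 0.15 (adjusted p = 3.82e-04). Dbp was at 118, 37.5, 26.0 and 17.6 TPM against 43.5, 47.1, 49.0 and 24.8 TPM and was called neither with all libraries (-0.06 ± 0.42) nor without the library labelled DRF ZT4 replicate 1 (-0.60 ± 0.41). Exons of Dbp and Sphk2 overlap on opposite strands over 18% of the length of Dbp. Among 15 tested output genes of the heart clock, 7 were lower and 1 was higher, where 3.47% of all tested genes were lower and 2.98% higher. Lower were Cys1 (4.70 against 13.8 TPM), a cilium protein, Tsc22d3, the cell cycle kinase gene Wee1, Mthfd1l, the transcription factor gene Klf15, Tspan4 and Por, and Leo1 was higher (0.51 on the log2 scale). Kcnip2, a potassium channel subunit known as a target of Klf15, was at 101 against 110 TPM and was not called.

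**Figure D2:**
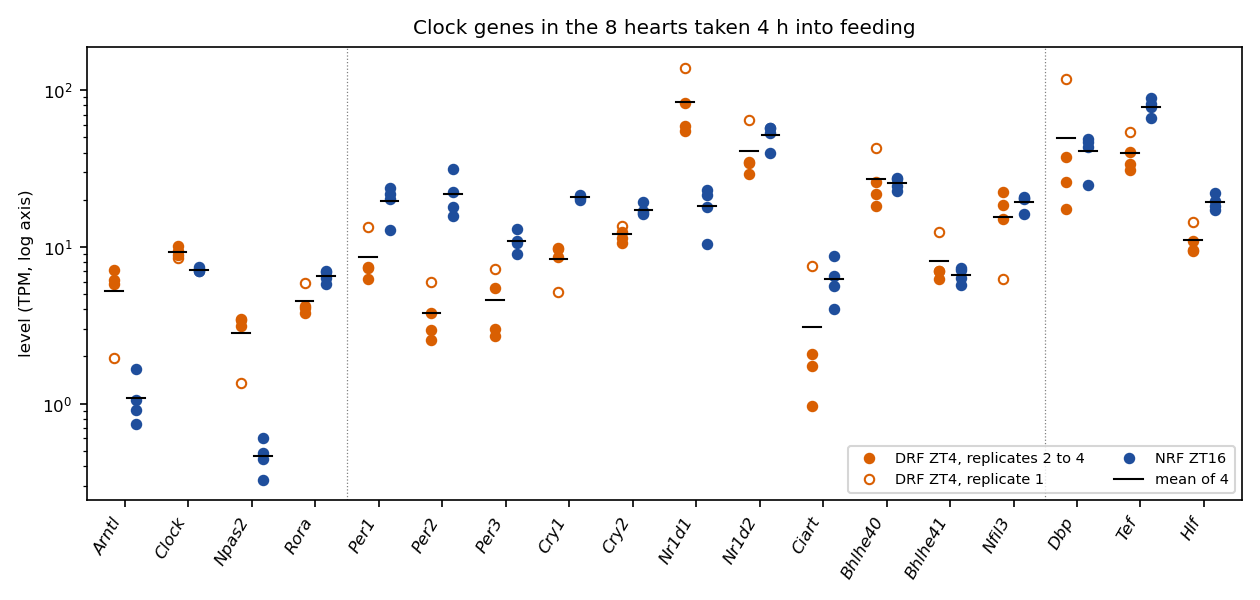
TPM (log axis) of 18 clock genes in each of the 8 hearts, DRF ZT4 and NRF ZT16 side by side, with the library labelled DRF ZT4 replicate 1 as an open symbol and group means as bars. Arntl and Nr1d1 lie higher and Per2, Cry1 and Tef lower in DRF ZT4 without overlap, and the open symbol lies far from the other DRF ZT4 values in Dbp (118 TPM) and Ciart (7.57 TPM).

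Across all genes the food-matched hearts differed in a limited set. In all, 894 of 13878 genes were called, 413 higher (2.98%) and 481 lower (3.47%) in DRF ZT4, and 2642 had an unadjusted p under 0.05. Without the library labelled DRF ZT4 replicate 1, 841 were called, 325 higher and 516 lower (1466 after rescaling by the median of ratios, 738 higher and 728 lower), and 648 genes were called in both sets, each with the same sign. Of the 894, 56 differed by at least 1 on the log2 scale, 18 higher and 38 lower, and the median size among called genes was 0.43. The 95% interval lay within ±0.5 for 10921 genes (78.7%) and within ±1 for 13242 (95.4%). With all libraries the same rescaling gave 1460 calls, 722 higher and 738 lower. The split also moved when single libraries were left out. It was 193 higher and 365 lower without NRF ZT16 replicate 1, and 506 higher and 392 lower without DRF ZT4 replicate 4. The values of the 4 DRF ZT4 hearts did not overlap those of the 4 NRF ZT16 hearts in 1476 genes (10.6%), and 718 of these were called.

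With all 8 libraries, the largest rise outside the clock was in Scd4. This gene, which encodes a stearoyl-CoA desaturase expressed mainly in heart, was at 21.6, 15.6, 7.97 and 13.7 TPM in DRF ZT4 and 1.92 to 2.83 TPM in NRF ZT16, well apart (2.19 ± 0.32, adjusted p = 5.75e-06). Its difference without the library labelled DRF ZT4 replicate 1 was 1.99 ± 0.34, less than that of Spon2. The other 15 tested genes of lipogenesis, Scd1, Fasn and Srebf1 among them, were not called, and the list had a median of -0.12. At 6.44% of all tested genes called, 1 of 16 is near the overall share. Col5a3, the alpha 3 chain of type V collagen, was at 17.7, 16.9, 22.2 and 16.5 TPM against 4.30, 4.45, 5.34 and 5.21 TPM (1.72 ± 0.17, adjusted p = 8.76e-10). Cx3cr1, the fractalkine receptor of resident macrophages and monocytes, was at 6.86 to 9.31 against 1.68 to 2.23 TPM (1.6 ± 0.18). The 5 macrophage markers summed to 200.9 to 352.4 TPM in DRF ZT4 and 288.1 to 337.9 TPM in NRF ZT16 and none of them was called. Their part in the Cx3cr1 difference was not tested.

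A further 4 genes were at least 2-fold higher and free of overlap. Slc41a3, a magnesium transporter, was at 49.7, 36.1, 32.1 and 40.0 TPM against 11.2, 11.2, 11.8 and 17.4 TPM (1.55 ± 0.16). Efhd1, a calcium-binding protein of mitochondria, was at 7.94 ± 1.29 against 2.31 ± 0.605 TPM (1.44 ± 0.15), with 12.0% of its exons shared with an antisense gene. Klhdc8a was at 19.2 ± 1.71 against 7.41 ± 2.08 TPM (1.30 ± 0.14). Acot1, a thioesterase that frees long-chain fatty acids from CoA, was at 19.3, 24.2, 14.8 and 24.2 TPM against 6.51 to 8.26 TPM (1.34 ± 0.27, adjusted p = 7.23e-04), and it has a near-identical neighbour, Acot2, with which reads may be shared. Spon2, a matrix protein, was at 5.48, 29.5, 20.8 and 17.3 TPM against 2.36 to 6.32 TPM, and the low value was from the library labelled DRF ZT4 replicate 1 (1.84 ± 0.37 with it and 2.30 ± 0.37 without it).

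Among the largest falls was Fmo2. This gene, for a flavin monooxygenase, was at 10.5, 33.5, 15.7 and 17.04 TPM in DRF ZT4 against 56.7, 102, 47.9 and 54.2 TPM in NRF ZT16 (-1.77 ± 0.22, adjusted p = 2.45e-07). Gsta3, a glutathione transferase, was at 6.29 ± 2.16 against 21.2 ± 1.88 TPM (-1.65 ± 0.15, adjusted p = 1.95e-10), and its neighbour on chromosome 1, Gm4956, was at 1.57 ± 0.0699 against 6.08 ± 0.878 TPM. Cyp1a1, the classic target of the aryl hydrocarbon receptor, had the largest fitted fall (-2.90 ± 0.63, adjusted p = 0.00202), but its NRF ZT16 values were 4.28, 165, 5.62 and 131 TPM against 0.687 to 7.44 TPM. Its groups overlapped, and the difference rested on NRF ZT16 replicates 2 and 4. Angptl7, a secreted angiopoietin-like protein, was at 4.99 to 13.3 TPM against 34.2 to 62.7 TPM (-2.08 ± 0.29). Nmb, the neuropeptide neuromedin B, was at 3.77 to 6.18 TPM against 14.6 to 24.01 TPM (-1.75 ± 0.25), with 20.6% of its exon length shared with Sec11a on the same strand. The noncoding Gm45819 (chr7:110119990-110121740), which lies just before Wee1 on the same strand, was at 8.81 ± 4.18 against 30.2 ± 3.25 TPM beside 11.8 ± 2.57 against 25.9 ± 1.73 TPM for Wee1, and Gm27252 was at 4.58 ± 1.38 against 15.99 ± 1.44 TPM.

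The fasting hearts tell whether a food-matched difference is seen at the same clock times without food. The counterpart, NRF ZT4 minus DRF ZT16, shares no library with the food-matched comparison. In it 3181 genes were called (22.9%), 2690 higher and 491 lower at ZT4. After rescaling by the median of ratios, 3024 were called, 1662 higher and 1362 lower, and the median of all genes went from 0.10 to -0.01, so the excess of higher calls depended on scaling. Of the 413 genes called higher in the food-matched hearts, 398 (96.4%) had the same sign in the counterpart, where 70.2% of all genes were higher. Of the 481 called lower, 431 (89.6%) had the same sign, where 29.8% of all genes were lower. In total 829 of 894 (92.7%) had the same sign, 529 were called in both with the same sign and 4 with opposite signs. Those 529 were 59.2% of the food-matched calls and 16.6% of the counterpart calls. Without the library labelled DRF ZT4 replicate 1 the same-sign share was 738 of 841 (87.8%). Pearson r between the log2 differences was 0.876 over the 894 called genes and 0.563 over all tested genes, given as a description across genes.

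**Figure D3:**
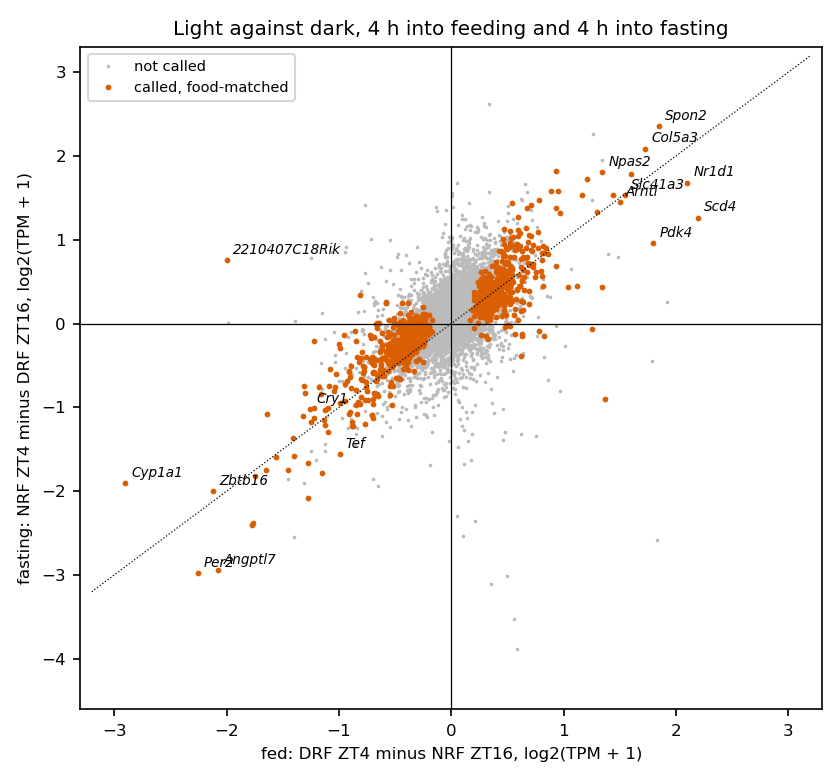
Log2 difference of each tested gene in the fed hearts (DRF ZT4 minus NRF ZT16, x axis) against that in the fasting hearts (NRF ZT4 minus DRF ZT16, y axis), with called genes of the fed comparison marked. Of 894 called genes, 829 lie in the quadrants of equal sign, and 2210407C18Rik lies in one of opposite sign.

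The genes with the largest shared difference in fed and fasting hearts were Per2, Angptl7, Zbtb16, Cyp1a1, Spon2, Gm45819, Fmo2, Nmb, Col5a3 and Nr1d1. Col5a3 was at 23.5 ± 6.68 TPM in NRF ZT4 and 4.65 ± 0.748 TPM in DRF ZT16, near the levels of the fed hearts at the same clock times. Fmo2 was at 8.63 to 19.01 TPM in NRF ZT4 and 67.2 to 69.6 TPM in DRF ZT16. Angptl7 was at 6.26 ± 3.34 and 50.5 ± 5.65 TPM and Gsta3 at 5.50 ± 0.246 and 21 ± 2.78 TPM. For Col5a3, Fmo2, Angptl7, Gsta3, Nmb, Cx3cr1 and Klhdc8a, fed minus fasting was called at neither clock time, and in each the fed minus fasting difference was smaller than the food-matched one.

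Called glucocorticoid-responsive genes were mostly lower in DRF ZT4. Of 14 tested, 4 were lower and 1 was higher, with a median of -0.48, beside 0.0016 over all tested genes, of which 3.47% were lower and 2.98% higher. Without the library labelled DRF ZT4 replicate 1, 6 were lower and none higher, where 6.06% of all genes were called. Zbtb16, a transcription factor gene induced by glucocorticoids, was at 13.9, 3.29, 4.63 and 6.30 TPM in DRF ZT4 and 38.7, 58.0, 14.4 and 25.1 TPM in NRF ZT16, so the library labelled DRF ZT4 replicate 1 came close to the lowest NRF ZT16 value (-2.12 ± 0.38, adjusted p = 1.30e-04). Fkbp5, a co-chaperone of the glucocorticoid receptor, was at 2.76 to 4.45 against 8.57 to 16.98 TPM (-1.56 ± 0.26, adjusted p = 4.43e-05). Tsc22d3, also known as GILZ, was at 33.5, 38.4, 37.9 and 39.2 TPM against 67.9, 104, 95.4 and 95.4 TPM (-1.24 ± 0.20), and the metallothionein gene Mt1 differed by -0.75. All 4 had the same sign in the fasting hearts, where 5 of the list were lower and none higher, beside 491 lower and 2690 higher of all 13878 genes (22.9% called). The higher gene was Pdk4, described with the fuel genes. The lists share members. Tsc22d3 is also counted with the clock output genes, Pdk4 with the fasting and PPAR responsive genes, and Mt1 with the metal genes.

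Called genes for chaperones of the endoplasmic reticulum (ER) were mostly higher in DRF ZT4. Of 16 tested ER chaperone and unfolded protein response genes, 3 were higher and 1 was lower, with a median of 0.34, where 6.44% of all tested genes were called. Without the library labelled DRF ZT4 replicate 1, 10 were higher and 1 lower, with a median of 0.44, where 6.06% of all genes were called. With all 8 libraries rescaled by the median of ratios, 7 were higher and 1 lower, where 10.5% of all genes were called. Manf, an ER stress-inducible secreted factor, was at 19.6, 51.5, 36.9 and 58.2 TPM against 21.5 to 26.6 TPM, with only that library inside or below the NRF ZT16 range (0.69 ± 0.22, adjusted p = 0.0421, and 1.00 ± 0.20 without it). Hspa5, the main ER chaperone BiP, was at 232, 329, 295 and 400.0 TPM against 211 to 235 TPM with an adjusted p of 0.0553 with that library, 0.0138 without it and 0.0452 with all 8 libraries after rescaling. Creld2 and Pdia4 were higher in both sets. Herpud1, a part of ER-associated degradation, was the lower gene, at 122 to 136 against 214 to 283 TPM (-0.88 ± 0.13). In the fasting hearts, where 22.9% of all genes were called, no gene of the list was higher and 2 were lower, Herpud1 by 1.18 on the log2 scale. The difference between the fed and the fasting contrast passed for no gene of this list with all libraries, and for Ddit3 alone without the library labelled DRF ZT4 replicate 1. Cytosolic heat shock chaperones had a median of -0.35 with 1 of 13 called, Hspa1a (2.45 against 6.38 TPM), which lost its call without the library labelled DRF ZT4 replicate 1 and has a near-identical copy, Hspa1b.

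Matrix and growth genes were partly higher in DRF ZT4. Of 12 collagen and matrix genes, 4 were higher and none lower, with a median of 0.38, and the lists of this paragraph are to be read beside 2.98% of all tested genes called higher. They were Col5a3, Col3a1 (114 against 59.2 TPM), Col1a1 (69.0 against 39.5 TPM) and Col5a1 (24.7 against 16.3 TPM), and Col5a3 and Col1a1 kept their calls without the library labelled DRF ZT4 replicate 1. The 5 fibroblast markers, which include Col1a1, summed to 445.5 to 734.4 TPM against 514.7 to 647.6 TPM, and their part in these differences was not tested. Of 12 growth signalling and ribosome biogenesis genes, Cad and Bop1 were higher, and neither was called without that library. In the fasting counterpart 8 of the 12 matrix genes and 8 of the 12 growth genes were higher, beside 2690 of all 13878 genes. The matrix median there was 0.93, beside 0.10 over all genes. Of 16 cholesterol genes, 4 were higher and none lower (median 0.20), among them Dhcr7, Sqle and Mvd, and the fasting counterpart had 10 higher, where 22.9% of all genes were called. Of 4 cold-inducible RNA-binding genes, all 4 were called higher in the fasting counterpart. In the fed hearts 1 was called, which so short a list does not set apart. This gene, Cirbp, was at 57.4, 49.3, 40.7 and 34.5 TPM against 21.8 to 27.6 TPM (0.83 ± 0.18, adjusted p = 0.00226), and at 44.8 ± 14.7 and 24.5 ± 8.28 TPM in fasting NRF ZT4 and DRF ZT16.

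The called fuel genes are listed here beside 6.44% of all tested genes called. None of the 6 fatty acid oxidation and lipolysis genes named by the study, which were chosen there on these samples, was called in the food-matched hearts. Ucp3, a mitochondrial uncoupling protein, was at 35.1 against 14.3 TPM and Cpt1a at 34.3 against 26.6 TPM. The median of these 6 genes was 0.20, and -0.06 without the library labelled DRF ZT4 replicate 1, where none was called either. Of 28 other genes of fatty acid oxidation, 4 were higher and none lower, Acot1, Acot2, Mlycd (94.9 against 68.0 TPM), which breaks down the CPT1 inhibitor malonyl-CoA, and Eci1, with a list median of 0.08. Without that library 3 were higher and none lower, where 6.06% of all genes were called. Of 14 fasting and PPAR responsive genes, 2 were higher and none lower, and 1 was higher without that library. Pdk4, one of these and the kinase that shuts off pyruvate dehydrogenase, was at 569, 255, 171 and 202 TPM against 105, 86.4, 48.9 and 73.8 TPM (1.8 ± 0.46, adjusted p = 0.0096). The groups did not overlap, but without the library labelled DRF ZT4 replicate 1 its adjusted p was 0.0637 (1.44 ± 0.48). In glucose uptake and glycolysis control, 3 of 14 were lower and 1 higher. Slc2a4, the insulin-regulated transporter GLUT4, was at 229, 177, 212 and 189.7 TPM against 243 to 256.5 TPM (-0.31 ± 0.10, adjusted p = 0.0466), Hk2 at 84.1 against 106 TPM and Pfkfb2 at 6.85 against 10.6 TPM, while Hk1 was higher at 46.3 against 38.5 TPM. Exons of Pfkfb2 share 17.4% of their length with Gm29427 on the same strand. Of 18 insulin and FOXO responsive genes, 3 were lower, and 6 without the library labelled DRF ZT4 replicate 1 (median -0.06 and -0.16). Irs2, an insulin receptor substrate, was at 3.57 to 4.21 TPM against 6.12, 7.36, 17.3 and 9.60 TPM (-1.09 ± 0.27, adjusted p = 0.00648), and Sesn1 and Foxo3 differed by -0.54 and -0.53.

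None of 12 sarcomere, 13 ATF4-responsive or 13 proliferation genes was called in the food-matched hearts, which at 6.44% of all genes called says little about lists of this length. In the fasting hearts, where 22.9% of all genes were called, 13 of 13 proliferation genes were higher at ZT4, but the difference between the fed and the fasting contrast passed for none of them. In cardiac ion channels and calcium handling 1 of 18 was called, Gja1 (connexin 43, 92.5 against 65.7 TPM), which was not called without the library labelled DRF ZT4 replicate 1, while Atp2a2 was called lower without it. Of 10 immediate early genes, Ier3 was lower (68.9 against 123 TPM), and of 12 metal and xenobiotic genes, Cyp1a1, Mt1 and the zinc transporter gene Slc39a14 were lower.

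**Figure D4:**
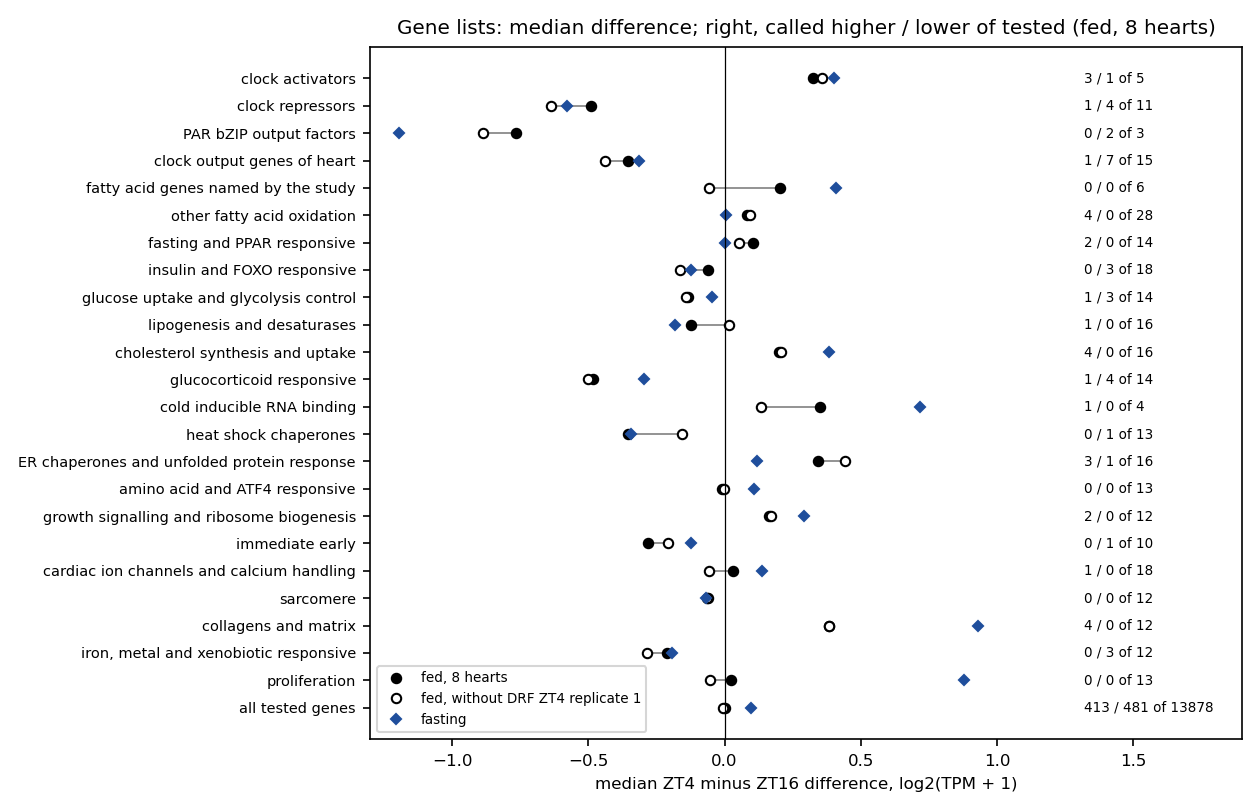
Median log2 difference of each gene list in the fed hearts (8 libraries, and without the library labelled DRF ZT4 replicate 1) and in the fasting hearts, with counts of genes called higher and lower. In the fed hearts glucocorticoid-responsive genes sit at -0.48 and ER chaperones at 0.34, beside 0.0016 over all tested genes.

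Some genes had fed minus fasting differences of one sign, both called, in DRF ZT4 minus NRF ZT4 and in NRF ZT16 minus DRF ZT16. At ZT4 61 genes were called (0.44%, 45 higher in fed hearts), and 361 without the library labelled DRF ZT4 replicate 1 (180 higher and 181 lower). The split at ZT4 depended on the scale, with 127 higher and 105 lower after rescaling by the median of ratios and 57 higher and 99 lower on the deposited values times length. At ZT16 958 were called (6.9%, 867 higher), and 600 after rescaling by the median of ratios (312 higher and 288 lower), which moved the median of all genes from 0.10 to 0.0015. With all libraries 33 genes were called at both times with one sign, 26 of them higher in fed hearts, and 2 with opposite signs. With each pair of groups fitted alone 1 gene was called at ZT4 by limma (733 had an unadjusted p under 0.05). The 33 fell to 0, so they rest on the spread shared over all 14 groups. Fits alone without the library labelled DRF ZT4 replicate 1 called 35 genes at ZT4, and 20 at both times with one sign. That setting was chosen after seeing the data. These 33 were 54.1% of the ZT4 calls and 3.45% of the ZT16 calls. Without that library they were 118, 93 of them higher in fed hearts. The 2 comparisons share no library with each other, but each shares one group with the food-matched comparison, so the food-matched values below are given side by side only.

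Of the 10 genes with the largest such differences with all libraries, Dok7, Pkdcc, Pnrc1, Retreg1, Tmem171 and Mid1ip1 were not called between the food-matched groups. Dok7, an activator of the receptor kinase MuSK, was at 14.2, 22.1, 25.8 and 23.4 TPM in DRF ZT4 and at 19.96 to 21.8 TPM in NRF ZT16, against 9.37 to 12.4 TPM and 10.9 to 15.1 TPM in fasting NRF ZT4 and DRF ZT16. Its food-matched difference was 0.01 with a 95% interval of -0.29 to 0.32. Pkdcc, a secreted kinase, was at 42.4 ± 9.66 and 43.1 ± 4.56 TPM in the fed groups and at 25.3 ± 1.93 and 26.1 ± 1.69 TPM in the fasting groups, with a food-matched interval of -0.34 to 0.24. Pnrc1, a nuclear receptor coactivator, was lower in fed hearts, at 57.2 ± 12.6 and 62.4 ± 5.04 TPM against 97.2 ± 6.91 and 99.1 ± 5.02 TPM (interval -0.46 to 0.18). Retreg1, a receptor for ER autophagy, was at 72.1 ± 27.2 and 73.9 ± 4.49 TPM against 109 ± 10.1 and 132 ± 7.95 TPM. In Dok7, Pkdcc and Retreg1 the library labelled DRF ZT4 replicate 1 was the one nearest the fasting hearts (Retreg1 at 112 TPM against 53.1 to 62.7 TPM in the others).

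The 10 genes with the largest such differences changed when that library was left out. They were then Angptl4, Txnip, Rtn4r, Slc41a3, Ppp1r3b, Adam19, Cited4, Tmem171, Inka2 and Chac1, and 3 of them, Slc41a3, Adam19 and Tmem171, were also among the 10 with all libraries. Angptl4, an inhibitor of lipoprotein lipase, was at 14.2, 3.05, 2.60 and 1.29 TPM in DRF ZT4 and 1.30 to 2.40 TPM in NRF ZT16, against 3.71 to 54.3 TPM in fasting NRF ZT4 and 7.93 to 17.9 TPM in fasting DRF ZT16. Its fed minus fasting differences without that library were -2.71 ± 0.59 at ZT4 (adjusted p = 0.00633) and -2.09 ± 0.55 at ZT16 (adjusted p = 0.0154). Txnip, an inhibitor of glucose uptake, was at 471, 251, 185 and 156 TPM in DRF ZT4 and 167 to 253 TPM in NRF ZT16, against 266 to 603 TPM and 446 to 614 TPM in the fasting groups, with 19.4% of its exon length shared with an antisense gene.

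At ZT8 the fed and the fasting libraries overlapped for Dok7 and Pkdcc. Dok7 was at 11.9 to 13.04 TPM in fed DRF ZT8 and 12.4 to 26.8 TPM in fasting NRF ZT8, and Pkdcc at 29.1 to 32.7 and 28.4 to 48.4 TPM. For both genes the highest NRF ZT8 library stood far above the other 3, so no direction is read from these means. Slc41a3 was lower in fed hearts at both times (-1.07 ± 0.16 at ZT4 and -1.08 ± 0.16 at ZT16), and was highest in fasting NRF ZT4 at 83.6 ± 14.1 TPM and lowest in fed NRF ZT16 at 12.9 ± 3.01 TPM. Wee1 and Gm45819 were higher in fed hearts at both times and lower at ZT4 than at ZT16. Adam19, a metalloprotease, was at 10.6 ± 0.850 and 7.16 ± 0.766 TPM in the fed groups against 22.2 ± 5.26 and 16.3 ± 2.10 TPM in the fasting groups. Its food-matched call (0.51 ± 0.16, adjusted p = 0.044) was lost without the library labelled DRF ZT4 replicate 1 (adjusted p = 0.0854). Mid1ip1, a regulator of acetyl-CoA carboxylase, was at 87.1 to 108 TPM in DRF ZT4 and 132 to 148 TPM in NRF ZT16 without overlap, with an adjusted p of 0.0734, and 25.5% of its exon length is shared with an antisense gene.

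The difference between the fed and the fasting contrast was tested as an interaction. As the sum of the DRF groups minus the sum of the NRF groups over ZT4 and ZT16, it is the same quantity as a difference between the regimens, and the 2 readings cannot be told apart within these 4 groups. It passed for 7 genes (0.0504%), while 1942 had an unadjusted p under 0.05. Without the library labelled DRF ZT4 replicate 1 it passed for 68 genes, 60 of them negative, but 91 after rescaling by the median of ratios, 49 of them negative. Among the 7 genes, 2210407C18Rik was at 15.6, 5.70, 6.81 and 4.31 TPM in DRF ZT4 and 43.3, 38.2, 23.9 and 26.1 TPM in NRF ZT16, with fasting NRF ZT4 at 17.6 ± 2.68 TPM and fasting DRF ZT16 at 10.04 ± 2.08 TPM (interaction -2.76 ± 0.41, adjusted p = 1.91e-04). Over all 7 clock times its group means were 6.79 to 10.4 TPM in DRF and 15.2 to 32.9 TPM in NRF, so DRF was the lower regimen throughout. The antisense gene Gm19522 was at 3.07 ± 0.749 and 6.08 ± 0.421 TPM in the fed groups and 4.95 ± 0.895 and 3.68 ± 0.374 TPM in the fasting groups. Oxct1, the enzyme by which heart burns ketone bodies, was at 640.2, 426, 507 and 503 TPM in DRF ZT4 against 653 to 684 TPM in NRF ZT16 (-0.38 ± 0.08, adjusted p = 0.00239), and at 645 ± 20.6 against 545 ± 57.0 TPM in fasting NRF ZT4 and DRF ZT16. Its group means were also lower in DRF than in NRF over all 7 clock times, at 493 to 572 TPM and 607 to 670.2 TPM. Exons of Oxct1 share 12.6% of their length with BC037032 on the other strand. Ramp1, the coreceptor for the peptide CGRP, was at 8.11, 10.8, 12.5 and 11.9 TPM against 5.22 to 7.55 TPM (0.62 ± 0.12, adjusted p = 5.58e-04), and at 8.11 ± 1.58 and 10.8 ± 1.56 TPM in fasting hearts. The carboxylesterase gene Ces1d was at 86.5 to 99.8 against 152 to 213 TPM (-0.96 ± 0.12), and Slc35g2 did not differ beyond its spread between the fed groups (-0.01, interval -0.17 to 0.15). The calls of Ces1d, Slc35g2 and Oxct1 were lost after rescaling by the median of ratios.

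**Figure D5:**
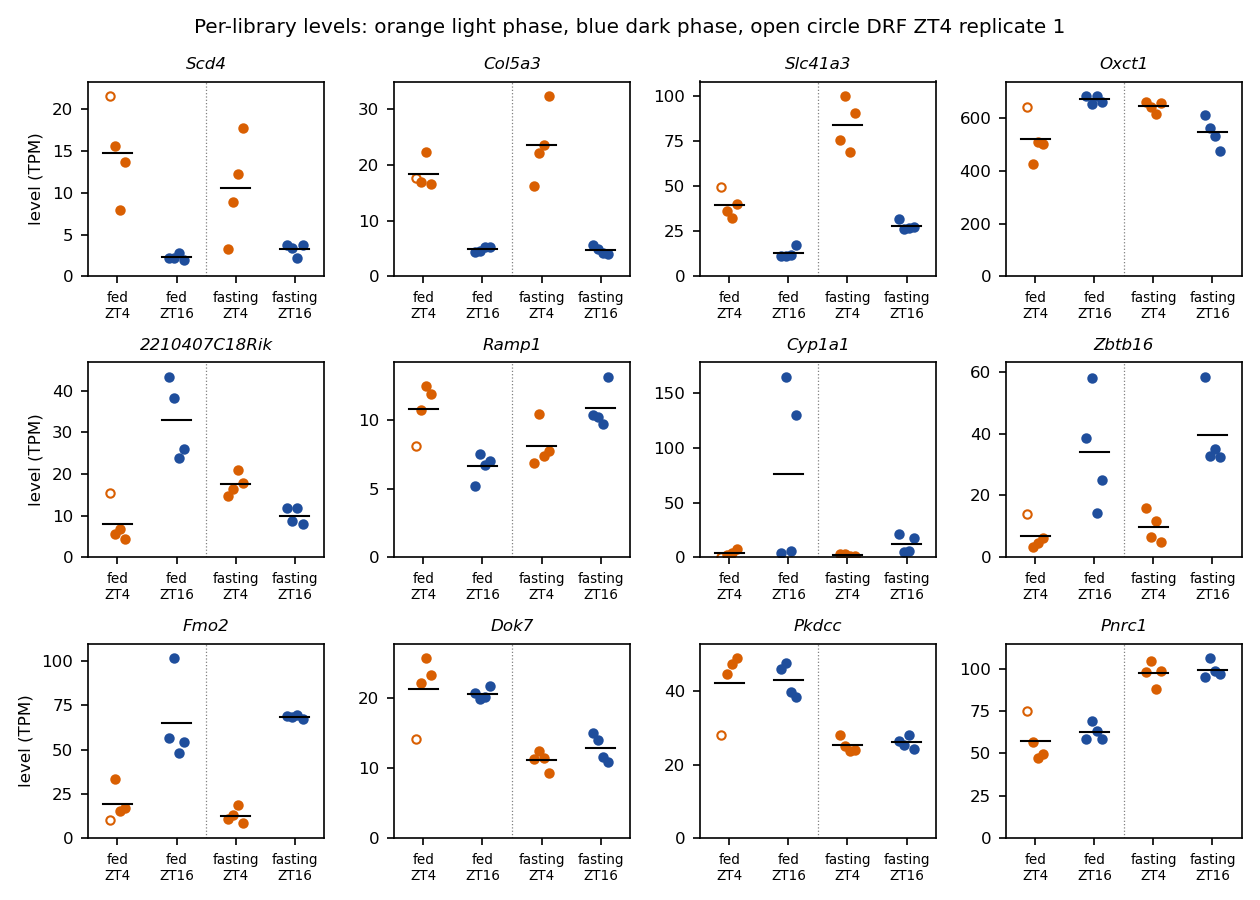
TPM of 12 genes in each library of fed DRF ZT4, fed NRF ZT16, fasting NRF ZT4 and fasting DRF ZT16, the library labelled DRF ZT4 replicate 1 as an open symbol and group means as bars. All libraries of Col5a3 and Fmo2 part by clock time and those of Pnrc1 by fed against fasting, while the group means of Zbtb16 part by clock time and those of Dok7 and Pkdcc by fed against fasting with single libraries overlapping, and 2210407C18Rik is highest in fed NRF ZT16.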

How the data were processed

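Whole-heart RNA was sequenced by the authors as paired 150-base reads from poly-A libraries, aligned with HISAT2 2.0.5 to mm10 and counted per gene with featureCounts 1.5.0-p3 per the labels and the submitters' processing notes. Strand use was not given in the sources used here. The authors deposited 1 table of 22864 genes by 56 libraries under the name TPM. Its values were no linear TPM: each was a library constant times log2(1 + scaled reads) divided by gene length. With GENCODE M21 exon lengths, reads were recovered (99.9996% of 1279029 values within 0.1 of a whole read) and linear TPM was computed from them. Lengths were annotated for 22011 genes and searched for 832, 797 of these on chromosomes 17 to 19, and 1 gene was left out. Totals were 29.4 to 53.2 M reads, and no molecular identifiers were named.

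The designed test was kept. limma 3.58.1 (R 4.3.3) was fitted to log2(TPM + 1) with 14 group means (42 residual degrees of freedom, trended prior) over the 13878 genes that averaged 1 TPM or more across libraries, adjusted by Benjamini-Hochberg. A fold change on this scale understates changes of genes near 1 TPM. In all, 5 contrasts were taken, and the recovery of reads and the fit were tested on simulated data. Named genes followed a rule: the 12 largest rises and falls called with and without DRF ZT4 replicate 1, all clock genes, called members of other lists (at most 4, plus at most 2 others), and the 10 genes with the largest shared difference in fed and fasting hearts, or in both fed minus fasting comparisons. Genes named beyond the rule were chosen after their values were seen. The members and lists were chosen with earlier results of these data known. Alternatives were another pseudocount, other filters, median-of-ratios rescaling, the deposited values times length, limma voom on recovered reads, a replicate block, the groups alone and each library left out. Results for some genes are not reported here.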

Additional observations from a re-analysis of the deposited data

Results flagged for a closer look

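Of 170 groups of 4 libraries tested among named genes, 11 held a library whose gap to its nearest neighbour passed the 95% limit of Dixon's test, where chance gives about 1 in 20. Of these, 4 were from the library labelled DRF ZT4 replicate 1, which was low in Npas2 (1.35 TPM) and Pkdcc (28.2 TPM) and high in Bhlhe41 (12.4 TPM) and Mvd (8.59 TPM). Other DRF ZT4 libraries stood apart in Hk2 (replicate 2, 70.9 TPM), Herpud1 (replicate 3, 121.8 TPM) and Angptl7 (replicate 4, 4.99 TPM). In NRF ZT16 these were Mvd in replicate 1 (3.78 TPM), Nfil3 in replicate 3 (16.2 TPM), and Slc41a3 (17.4 TPM) and Eci1 (558.3 TPM) in replicate 4.

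The ZT4 minus ZT16 difference of 7 genes differed between fed and fasting hearts by the limma interaction term, which is also the difference between the DRF and the NRF groups over both times. The interaction was 1.01 for Ramp1, and it was -2.76 for 2210407C18Rik, -1.15 for Gm19522, -0.82 for Ces1d, -0.63 for Oxct1 and -0.55 for Slc35g2 on the log2 scale.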

How the results depend on the processing

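Of 1365 values of 92 named genes under the alternatives, 1204 kept their side of the threshold, 152 lost the call and 9 gained one. Of the values called in the main fit, 0 reversed direction. Direction was not followed for values that were not called. Food-matched calls numbered 1460 after rescaling by the median of ratios and 318 with the groups fitted alone, and 1466 and 428 in the same settings without DRF ZT4 replicate 1, which were chosen after seeing the data. With libraries of the 2 groups compared left out they numbered 548 (without NRF ZT16 replicate 2) to 898, with 558 without NRF ZT16 replicate 1. The share with the same sign in the fasting counterpart was 87.8% to 95.8% with libraries left out. Clock genes called numbered 11 to 14 with libraries left out and 9 with the groups alone. Fasting counterpart calls numbered 1629 with the groups alone and 1544 (without NRF ZT4 replicate 4) to 3982 with libraries left out, with 2108 without DRF ZT16 replicate 4. Fed minus fasting calls at ZT4 numbered 232 after rescaling, 156 on the deposited values times length, 153 by voom and 1 with the groups alone, 881 and 35 in the settings without DRF ZT4 replicate 1 (rescaled and alone), and 28 (without DRF ZT4 replicate 3) to 361 (without DRF ZT4 replicate 1) with libraries left out, with 29 without DRF ZT4 replicate 4. At ZT16 they numbered 600 after rescaling, 453 on the deposited values and 227 (without DRF ZT16 replicate 4) to 1284 with libraries left out, with 502 without DRF ZT16 replicate 3, 412 without NRF ZT16 replicate 2 and 454 without NRF ZT16 replicate 3. Genes called with one sign in both fed minus fasting comparisons numbered 57 after rescaling, 64 by voom, 0 with the groups alone, 158 and 20 in the same settings without DRF ZT4 replicate 1 (rescaled and alone), and 17 to 118 with libraries left out. With the groups alone, 733 genes had an unadjusted p under 0.05 at ZT4. The interaction passed for 11 genes with no filter, 13 at a mean of at least 5 TPM, 4 after rescaling, 3 with the groups alone, 91 and 11 without DRF ZT4 replicate 1 (rescaled and alone), and 4 to 68 (without DRF ZT4 replicate 1) with libraries left out. Fits of the groups alone had fewer samples, and other causes were not tested. Own-group correlations over clock genes were 0.312, 0.905, 0.778 and 0.458 in DRF ZT4 and 0.969, 0.979, 0.94 and 0.869 in NRF ZT16, against -0.155, -0.204, 0.236, 0.117, 0.481, 0.374, 0.335 and 0.44 over all tested genes.

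Libraries with the same replicate number were not taken as pairs, since their deviations correlated at 0.022, 0.239, 0.148 and -0.002. Only replicates 2 and 3 correlated best with their own number. A replicate block gave 898 food-matched, 3180 counterpart, 62 and 937 fed minus fasting and 9 interaction calls, with 12 clock genes called, a same-sign share of 92.9% and 34 genes called with one sign in both fed minus fasting comparisons. With 4 libraries a group and a median SE of 0.10 on the log2 scale, small differences could not be resolved, and intervals cover the spread between these samples only.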
